A study of Mus musculus with 9 samples.

Results

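The 647 regions described here held a peak of the Hdac1 list and a peak of the Hdac2 list of the Hd2lox line, and no peak of the lists of the Bry and Hd1_loxlox lines. They were found by joining the peaks of all 6 lists wherever these overlapped by 1 bp or more, which gave 24761 regions on chromosomes 1 to 19, X and Y. The lists come from chromatin immunoprecipitation sequencing (ChIP-seq) of haemogenic endothelium, the endothelial cells from which blood cells arise, made in culture from mouse embryonic stem (ES) cells of C57BL/6 background. Bry was used at passage 16 to 19, and Hd1_loxlox and Hd2lox at passage 25 to 30. No cells were treated, and the labels do not say which alleles the lines carry or whether a line is 1 clone. Each line gave 1 library with an Hdac1 antibody from Diagenode, 1 with an Hdac2 antibody from abcam and 1 input library, and the inputs were not analysed here. With 1 library per line and antibody there is no replicate, so a line, its passage and its library cannot be told apart, and no test is given. The members were selected on presence in these lists, so that pattern is not a finding. The lists hold positions on mm10 without heights or read counts, so depth is unknown, a missing peak does not show missing protein, and the labelled cell type could not be checked against its markers.

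Hdac1 and Hdac2 are closely related enzymes that remove acetyl groups from histones. They act in the same large complexes (NuRD, Sin3 and CoREST), which reach DNA through partner proteins, and they are found at promoters of active genes as well as at genes that are held silent. Many mouse promoters lie in CpG islands, stretches in which the CG dinucleotide has not been depleted.

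The promoters of 7 members are shown because they stand for the gene families described below. In each family this was the start under the widest peaks among those that both Hd2lox peaks covered in full. Each sequence is from RefSeq (GRCm38.p6), runs 5′ to 3′ on the strand of the gene from 250 bases before the start to 50 after it, and has every CG in capitals.
Hoxd11: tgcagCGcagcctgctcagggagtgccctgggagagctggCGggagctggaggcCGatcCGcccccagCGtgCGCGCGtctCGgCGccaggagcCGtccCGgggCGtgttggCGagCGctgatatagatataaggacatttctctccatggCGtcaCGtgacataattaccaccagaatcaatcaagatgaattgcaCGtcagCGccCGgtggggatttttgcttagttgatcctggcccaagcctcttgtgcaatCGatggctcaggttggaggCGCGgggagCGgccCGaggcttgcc
Lmx1b: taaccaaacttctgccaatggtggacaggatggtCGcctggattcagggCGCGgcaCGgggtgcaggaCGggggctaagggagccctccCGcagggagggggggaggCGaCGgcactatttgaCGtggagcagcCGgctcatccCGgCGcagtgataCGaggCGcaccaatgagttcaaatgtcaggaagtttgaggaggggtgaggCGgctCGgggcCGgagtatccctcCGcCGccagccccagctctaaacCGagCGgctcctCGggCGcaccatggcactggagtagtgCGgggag
Snap91: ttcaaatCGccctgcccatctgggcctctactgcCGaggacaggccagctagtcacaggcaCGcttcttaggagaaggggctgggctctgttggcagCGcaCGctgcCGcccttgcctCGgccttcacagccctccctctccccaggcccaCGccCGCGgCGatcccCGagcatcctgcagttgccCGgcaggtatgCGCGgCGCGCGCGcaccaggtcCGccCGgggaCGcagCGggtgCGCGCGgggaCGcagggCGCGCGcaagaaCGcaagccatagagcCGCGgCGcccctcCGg
Kcna3: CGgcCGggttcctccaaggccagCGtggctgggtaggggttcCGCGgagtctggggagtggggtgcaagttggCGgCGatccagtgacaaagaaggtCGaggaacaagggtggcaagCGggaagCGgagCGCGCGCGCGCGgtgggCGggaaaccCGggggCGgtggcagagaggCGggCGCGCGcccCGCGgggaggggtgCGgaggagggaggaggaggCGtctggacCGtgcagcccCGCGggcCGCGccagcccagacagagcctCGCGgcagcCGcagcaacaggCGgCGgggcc
Dmrtb1: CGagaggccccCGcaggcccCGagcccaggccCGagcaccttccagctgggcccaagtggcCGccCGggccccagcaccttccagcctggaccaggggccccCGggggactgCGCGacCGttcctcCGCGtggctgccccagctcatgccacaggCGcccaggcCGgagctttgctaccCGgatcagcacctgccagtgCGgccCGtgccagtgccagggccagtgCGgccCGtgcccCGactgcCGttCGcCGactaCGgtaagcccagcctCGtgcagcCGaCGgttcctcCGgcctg
Kdf1: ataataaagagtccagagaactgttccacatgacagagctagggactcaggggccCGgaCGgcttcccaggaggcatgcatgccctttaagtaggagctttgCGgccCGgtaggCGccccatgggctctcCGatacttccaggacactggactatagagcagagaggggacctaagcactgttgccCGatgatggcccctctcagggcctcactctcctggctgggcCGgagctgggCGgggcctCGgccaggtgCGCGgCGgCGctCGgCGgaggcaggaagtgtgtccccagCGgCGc
Grb10: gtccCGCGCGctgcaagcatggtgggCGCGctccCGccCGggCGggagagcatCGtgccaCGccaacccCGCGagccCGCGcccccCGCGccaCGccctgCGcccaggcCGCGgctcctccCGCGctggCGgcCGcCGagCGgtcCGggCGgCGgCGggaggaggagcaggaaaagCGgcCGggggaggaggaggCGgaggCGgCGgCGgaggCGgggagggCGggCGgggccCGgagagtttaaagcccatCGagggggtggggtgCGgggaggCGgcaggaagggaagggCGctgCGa
They are Hoxd11, a Hox gene of the posterior body (chr2:74682073-74682372, plus strand), Lmx1b, a LIM homeobox gene (chr2:33641049-33641348, minus), Snap91, a clathrin assembly protein of synapses (chr9:86880659-86880958, minus), Kcna3, a voltage-gated potassium channel (chr3:107035912-107036211, plus), Dmrtb1, a regulator of male germ cells (chr4:107683540-107683839, minus), Kdf1, a regulator of keratinocytes (chr4:133518713-133519012, plus), and Grb10, an imprinted growth inhibitor (chr11:12037371-12037670, minus). They held 18 CG in Kdf1, 24 in Lmx1b, 25 in Hoxd11, 28 in Dmrtb1, 35 in Snap91, 37 in Kcna3 and 45 in Grb10. The median over all 21263 starts in the promoter table was 13. It was 26 over starts at members and 24 over starts at all regions.

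Most members lay at annotated gene starts or, for genes without a known start, at an outer end of the gene. Of the 647, 397 (61.4%, 95% Wilson interval 57.6 to 65.0, counting error only) were within 1000 bp of a start of a protein-coding gene. Both outer ends counted as starts for genes whose start is not in the promoter table, so some of these may be gene ends. A start of known strand was within 1000 bp of 300 of them. A further 170 (26.3%) lay elsewhere in a protein-coding gene, 44 (6.80%) in a gene of another kind and 36 (5.56%, 4.05 to 7.61) outside genes. The 856 regions held by both Bry lists and no other were at starts in 57.2% and outside genes in 13.2%. Regions in a single Hd2lox list lay elsewhere: 15.9% of the 1966 in the Hdac1 list only and 2.17% of the 5726 in the Hdac2 list only were at starts. The 2601 regions that the Hd2lox pair shared with other lists were at starts in 89.6%.

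**Figure D1:**
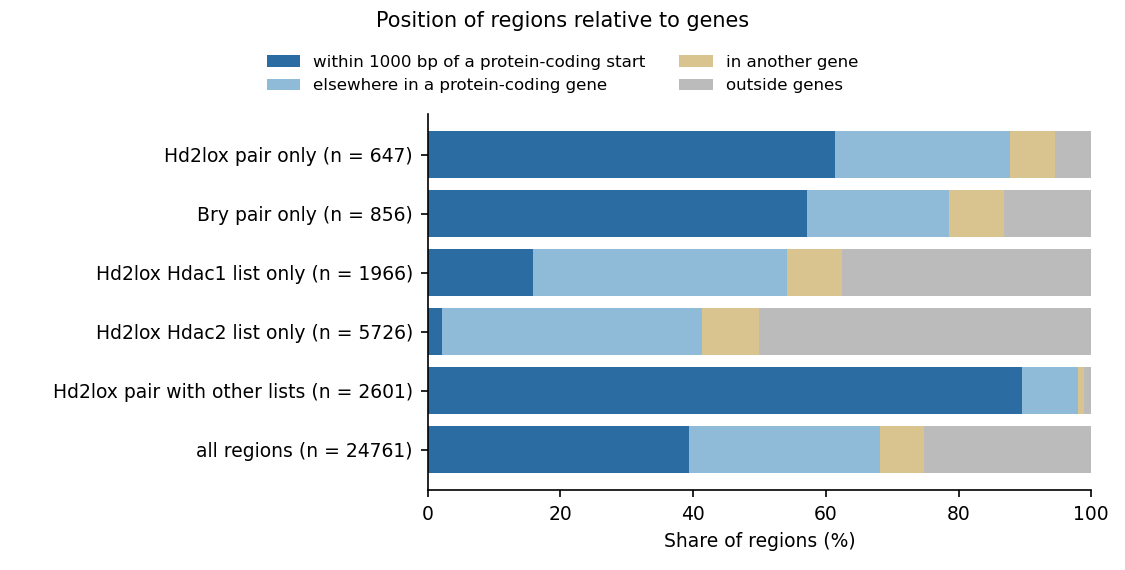
Share of regions (%) by position relative to annotated genes, 1 bar for each class of region, with the number of regions in brackets. The members (top bar) are at protein-coding starts in 61.4% and outside genes in 5.56%, while regions in the Hd2lox Hdac2 list only are outside genes in 50.1%.

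The members were 19.9% of the 3248 regions in which the Hd2lox lists met, and the largest group there, 1471 regions (45.3%), held peaks of 3 further lists. They took up 647 (8.60%) of the 7519 Hd2lox Hdac1 peaks and 651 (7.17%) of the 9082 Hdac2 peaks. By the rule no peak of the other lines overlapped a member, and the distances to them were not measured for other regions. The nearest peak of any of the other 4 lists was at a median of 37699 bp, and it was within 1000 bp in 21 members (3.25%) and within 10000 bp in 140 (21.6%). The closest were 68 bp away at Blvrb, which makes biliverdin reductase, 79 bp away in Ago2, which encodes an Argonaute protein, and 114 bp away in Hdac5, itself a histone deacetylase. Of the 404 genes with a member at a start, 33 (8.17%) also had a peak of another line at a start and 102 (25.2%) at a start or inside. These shares are limited by the same rule and have no background here.

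The Hdac1 and Hdac2 peaks of a member overlap by the rule, and the extent of overlap was not measured for other regions. In members the peaks were closely superposed. Their median overlap was 879.0 bp (46 to 2795), their centres lay a median of 84.0 bp apart, and in 491 members (75.9%) the Hdac2 peak lay wholly inside the Hdac1 peak. The Hdac1 peak was the wider in 605 members (93.5%), in lists whose overall medians also differ (1445 and 822 bp). Among Hdac1 peaks those of members were rather narrow: their median of 1268 bp was at percentile 33.65 of width in the list. Their Hdac2 peaks had a median of 890.0 bp, at percentile 69.42. Where the Hd2lox pair met other lists the medians were 1558 bp (percentile 59.27) and 904.5 bp (percentile 72.26). Width stands in here for strength, which the lists do not give, and the narrowest peaks share a floor, 799.0 bp in the Hdac1 list and 760.0 bp in the Hdac2 list. Across members the widths had a Spearman rho of 0.27, over regions that share both libraries.

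**Figure D2:**
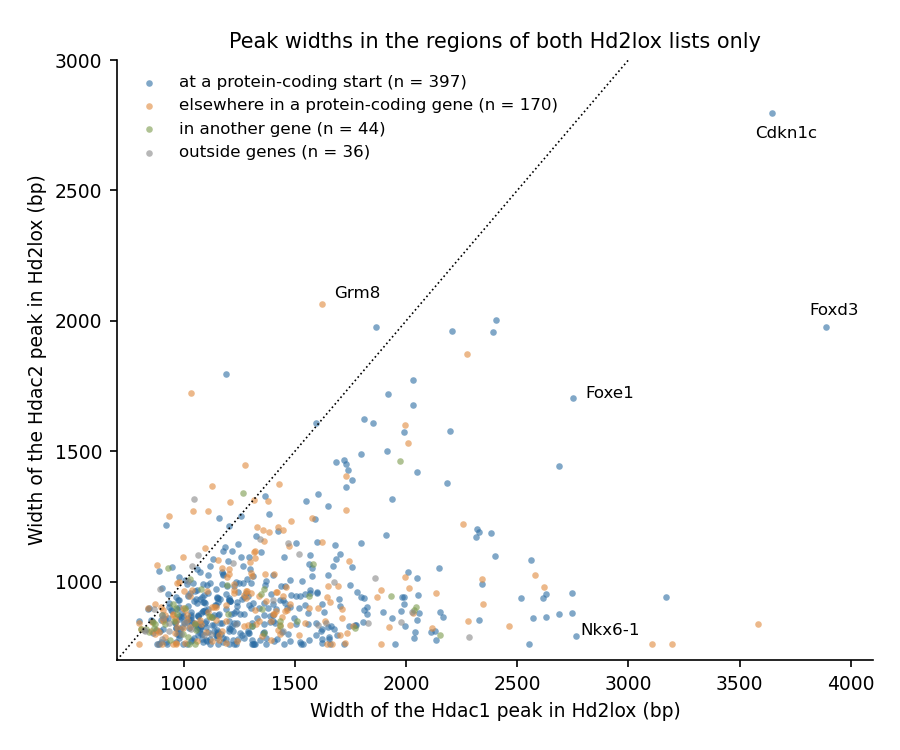
Width (bp) of the Hdac2 peak against width of the Hdac1 peak in Hd2lox, 1 point for each of the 647 members, coloured by position, with equal widths on the dotted line. Most points lie below the line, and Cdkn1c and Foxd3 have the widest pairs.

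At 300 members with a start of known strand, 285 (95%) covered the start itself. The peaks were centred just into the gene: the Hdac1 centre lay a median of 118.5 bp downstream and the Hdac2 centre 115.0 bp. The centre was downstream in 75% for Hdac1 (69.8 to 79.6) and 76.0% for Hdac2 (70.9 to 80.5). Counting each peak against its nearest start, the Hdac1 medians were 116.2 bp in members, 207.0 bp where the Hd2lox pair met other lists and, for the Bry library, 90.75 bp in regions of the Bry pair only.

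In all, 404 of 21887 protein-coding genes (1.85%) had a member at a start, and 591 (2.70%) at a start or inside. The widest pairs at starts included those of Cdkn1c, Foxd3, Foxe1, Dlgap1 and Nkx2-4. Cdkn1c, an imprinted inhibitor of cyclin-dependent kinases, had the widest Hdac2 peak, 2795 bp inside an Hdac1 peak of 3645 bp (chr7:143458887-143462531), which covered the upper end and most of the gene (chr7:143458339-143461059). Foxd3, a forkhead factor of the neural crest and of pluripotent cells, had the widest Hdac1 peak of all members, 3888 bp (chr4:99654437-99658324), with an Hdac2 peak of 1975 bp whose centre lay 918.0 bp downstream of the start. Foxe1, a thyroid regulator, had an Hdac1 peak of 2751 bp and an Hdac2 peak of 1706 bp, and further pairs are given in this order. Nkx2-4, a homeobox gene, had 2390 and 1959 bp. Of these 5 genes, Dlgap1 alone had a peak of another line at a start or inside, in both Bry lists.

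The 25 genes with the widest pairs at a start also held other kinds of gene. Dlgap1, a scaffold of the postsynaptic density, had an Hdac1 peak of 2687 bp and an Hdac2 peak of 1444 bp that overlapped by 1348 bp. Begain (2208 and 1963 bp), Ptprt, a receptor phosphatase (2329 and 1191 bp), Nefm, a neurofilament chain (2402 and 1100 bp), Shisa6, an auxiliary subunit of glutamate receptors (2033 and 1677 bp), and Doc2b, a calcium sensor of vesicle release (1917 and 1721 bp), also belonged to them. Further regulators were Skor1, Sp9, En1, Hoxd11, Hoxd13 and Ovol2, a repressor in epithelia. Tmem259, Prr18, Flrt1, Elfn1, Igsf3, Grb10 and Gm42517 were also among the 25. Cdkn1c, Foxe1, Nefm, Shisa6, Doc2b, Tmem259 and Flrt1 had no start of known strand there. An outer end of each of these genes was counted, which may not be its promoter. At Grb10 (1989 and 1574 bp) all 4 lists of the other lines had peaks at another start or inside the gene, and the nearest peak of those lists was 9060 bp from the member.

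Of the 12 widest pairs away from starts, 11 were inside protein-coding genes. Lmtk3, a kinase, held peaks of 2276 and 1874 bp (chr7:45793327-45795693), 7980 bp from its nearest start. Dmrta2 and Prdm13, regulators of the developing nervous system, held 2258 and 1223 bp and 1995 and 1599 bp. Nkx2-1, a regulator of thyroid, lung and forebrain, held 2342 and 1012 bp at 1716 bp from a start. Ptprd (507932 bp from a start), Siglec15, Dact3, Baiap2l2, B3gat1 and Gprin1 were further ones. Another region lay in a gene of another kind, 35523 bp from the nearest protein-coding start, that of Obox7.

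The genes of 16 lists, pooled, were held about as often as other genes. The lists cover signalling and blood development, and also pluripotency, neural, cardiac, cell cycle, cytoskeletal and other genes. Over them, 11 of 544 genes (2.02%) had a member at a start, against 1.84% of genes outside the lists. The pooled share does not describe a single programme. Haematopoietic transcription factors had 1 of 32, endothelial genes 0 of 38 and blood cell genes 0 of 28. Pluripotency genes had 2 of 20 and neural and endoderm genes 2 of 24. Where the Hd2lox pair met other lists, the same genes numbered 139 (25.6%), against 11.1%. The 11 genes stood 1 or 2 to a list. Of 40 TGF-beta genes it was Ltbp4, which holds latent TGF-beta in the matrix, with peaks of 1175 and 1029 bp (chr7:27333010-27334184). Of 25 Notch genes it was Heyl, a Notch target repressor (1227 and 882 bp), and of 32 haematopoietic transcription factors Gata2, which stem cells and their endothelial precursors need (2114 and 809 bp, chr6:88193210-88195323). Gata2 also had peaks of both Bry lists and of the Hd1_loxlox Hdac1 list at a start or inside. The nearest peak of the other lines lay 1462 bp from the Gata2 member.

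Other list genes were Fgf4 and Sox2 of 20 pluripotency genes, Sox3 among 24 neural and endoderm genes, Tead3 of 34 Hippo genes, Mta1, a NuRD subunit, of 38 genes of the Hdac complexes, Cdkn1c of 37 cell cycle genes and Fgf2 of 43 growth factor genes. At Sox2 the peaks measured 1204 and 811 bp and at Fgf2 1992 and 940 bp. No start was held among 23 BMP, 37 Wnt, 38 endothelial, 28 blood cell, 46 cardiac and mesenchymal, 32 AP-1 and immediate early and 57 cytoskeletal genes. Members lay inside 3 genes of these lists: Rasip1, needed for vessel lumens, Nr4a1, an immediate early nuclear receptor, and Palld, an actin crosslinker. All 3 genes also had peaks of other lines at a start or inside.

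Among 15 further families several had larger shares. These families were chosen after the members were seen, so their counts are a description. Where a set had no shared symbol, as for germ cell, epithelial and imprinted genes, its genes were also listed by name then. Its share may be raised by that choice. Of 39 Hox genes 7 had a member at a start (17.9%), namely Hoxa4, Hoxa10, Hoxb4, Hoxb9, Hoxc13, Hoxd11 and Hoxd13. Of 155 other homeobox genes 20 did (12.9%), among them Gsc, Lhx2, Mnx1, Nkx6-1, Irx1 and Tlx1, and 11 more had a member inside. The peaks at Hoxc13 measured 1797 and 1490 bp, at Hoxb4 1329 and 862 bp and at Nkx6-1 2748 and 882 bp. Of 44 forkhead genes 4 had a member at a start, among them Foxd3, Foxe1 and Foxe3. The Bry pair, which was at a start of 2.60% of all genes, held 0 of the 39 Hox genes, 1 of the 155 and 0 of the 44 forkhead genes. Where the Hd2lox pair met other lists, 11.4% of all genes had a region at a start. There, 2 Hox genes (5.13%), 32 of the other homeobox genes (20.6%) and 20 forkhead genes (45.5%) had one, against 9.09% of forkhead genes for members. Regions of the Hd2lox Hdac1 list only, at a start of 1.45% of all genes, held 3 Hox genes (7.69%), 7 of the other homeobox genes (4.52%) and 1 forkhead gene (2.27%). Whether these shares differ between the classes was not tested.

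Germ cell genes, a set listed by name after the members were seen, had the highest share of the 15 families. The Bry pair held 0 of the 67. The Hd2lox pair with other lists, at a start of 11.4% of all genes, held 6 of the 67. Of these genes 14 (20.9%) had a member at a start. They include Ddx4, the germ cell helicase Vasa (1085 and 993 bp, chr13:112651717-112652855), Sycp1, of the synaptonemal complex (921 and 1216 bp), Mael (1111 and 1026 bp), Tdrd5 and Tdrd6, of the piRNA pathway, Msh4 and Hfm1, of meiotic crossing over, and Tex12. Tdrd6 had the widest Hdac1 peak of them (3171 bp). At Adad1, Papolb, Rbmxl2, Sycp1 and Tex12 the Hdac2 peak was the wider of the pair, by most at Sycp1. These genes act in germ cells, and peak lists do not show whether they were transcribed here.

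Members also lay at genes of excitability and secretion. They were at starts of 9 of 94 potassium channel genes (9.57%), 4 of 26 calcium channel genes (15.4%) and 8 of 54 genes of vesicle trafficking (14.8%). In the same order, the Hd2lox pair with other lists held 19, 6 and 7 of these genes, and the Bry pair 0, 0 and 3. Regions of the Hd2lox Hdac1 list only held 1, 0 and 4. Whether the classes differ in these families was not tested. Kcna3 had peaks of 1601 and 1153 bp, Kcnk9 of 2618 and 937 bp and Cacna1i of 2764 and 793 bp. Epithelial genes were held in 10 of 56 (17.9%), among them Epcam, an adhesion molecule of epithelia (2049 and 1014 bp), Marveld2, a tight junction protein (981 and 1019 bp), and Ovol2 (2560 and 1083 bp). Imprinted genes were held in 6 of 51 (11.8%), Ampd3, Cdkn1c, Cobl, Dio3, Dlk1 and Grb10. The Hd2lox pair with other lists held 7.14% of the epithelial and 15.7% of the imprinted genes, and the Bry pair 3.57% and 1.96%. Near or below the 1.85% of all genes were solute carriers (9 of 375), Zfp genes (5 of 397), cytosolic ribosomal protein genes (0 of 84) and olfactory receptors (1 of 1110, Olfr94).

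**Figure D3:**
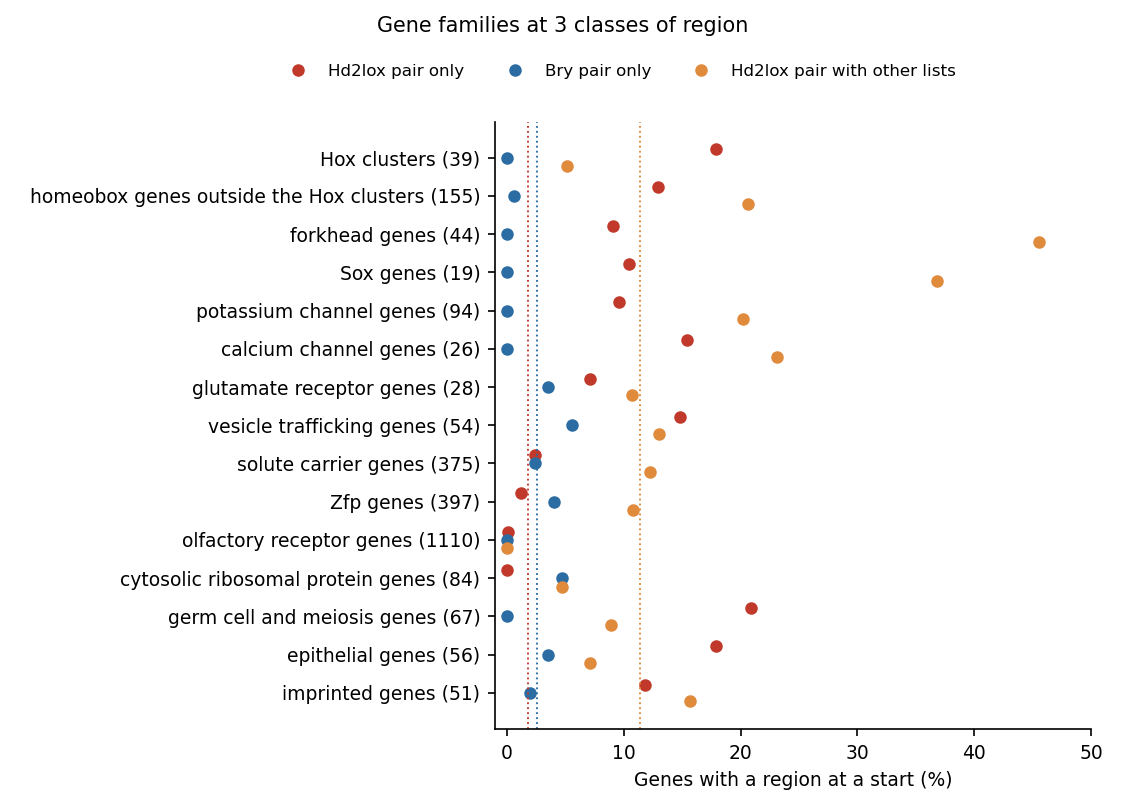
Genes of each family with a region at a start (% of the number of genes in brackets), 1 point for each of 3 classes of region, with the share over all protein-coding genes as a dotted line of the same colour. The members reach 20.9% of germ cell genes and 17.9% of Hox genes, where the Bry pair is at 0. The families were chosen after the members were seen, and germ cell genes were listed by name.

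The promoters of members were rich in GC and CpG, as were starts at all regions. Over 362 starts of 302 genes in the promoter table, the median GC content was 68.7%, the median ratio of observed to expected CpG was 0.78, and 270 (74.6%, 69.9 to 78.8) were CpG-rich, meaning a ratio above 0.6 with GC above 50%. At the Bry pair the CpG ratio was alike (0.77) but the GC content was lower, 59.0%. Where the Hd2lox pair met other lists the values were 69.3% and 0.88, and at starts with no region 50.0% and 0.26. Starts at all regions had 63.7% and 0.81, and 78.9% of them were CpG-rich. The 13 germ cell starts had a median CpG ratio of 0.85 and 11 were CpG-rich, and 9 of 11 homeobox starts outside the Hox clusters were CpG-rich.

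**Figure D4:**
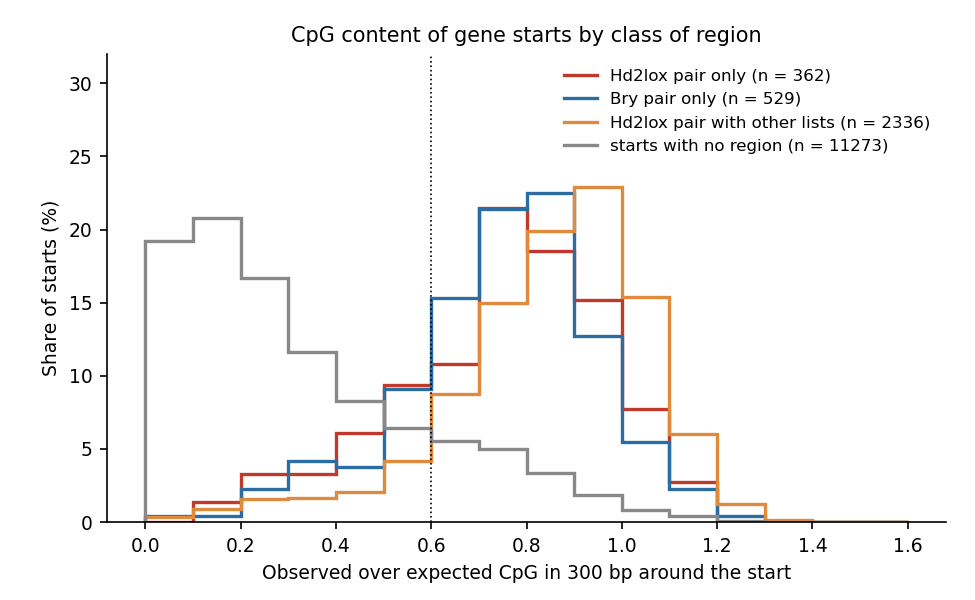
Ratio of observed to expected CpG in the 300 bp around gene starts, as the share of starts (%) per bin, for 4 classes of start, with 0.6 as a dotted line. The members follow the classes with regions, with a median of 0.78, while starts with no region have a median of 0.26.

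The ETS letters CCGGAAG had a share in member promoters that lay below that at the Bry pair and near that at starts with no region, a difference that was not tested. Searched on both strands of the same 300 bp, they were in 19 of 362 starts (5.25%, 3.39 to 8.05), against 25.5% at the Bry pair (22 to 29.4), 12.1% where the Hd2lox pair met other lists, 5.38% at starts with no region and 11.6% of all starts. Among CpG-rich starts alone the shares were 4.44%, 28.5%, 13.2%, 17.5% and 20.1% in this order. Without the limit to CpG-rich starts, those at regions of the Hd2lox Hdac1 list only had 6.23%. Those of the Hd2lox Hdac2 list only had 1.08%, which is 1 of 93 starts. The letters CCAAT, bound by NF-Y, were in 26.0% of member starts (21.7 to 30.7) and 44.2% at the Bry pair (40.1 to 48.5), and the cyclic AMP response element TGACGTCA was in 0.829% and 4.91%. The GC box GGGCGG, bound by SP and KLF factors, was in 75.1% (70.4 to 79.3) and 66.0%. At starts where the Hd2lox pair met other lists, CCAAT was in 29.6%, TGACGTCA in 2.70% and the GC box in 78.6%. The CCAAT and GC box shares of that class lay within the intervals of the members. Starts at all regions had 35.9%, 3.42% and 71.3% in the same order. Whether these shares differ between the classes was not tested. No motif named here is contained in another. None of the 7 promoters printed above holds CCGGAAG, and 6 hold the GC box. Such matches are letters in a window, not measured binding.

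Members were spread unevenly over chromosomes. Chromosome 8 held 11 (1.70%, 0.952 to 3.02), where it has 4.77% of protein-coding genes and 7.80% of all regions. Chromosome 16 held 8 (1.24%) and chromosome 14 held 11 (1.70%), which have 3.10% and 3.89% of genes and 3.95% and 3.14% of all regions. Chromosome 14 has 2.90% of the regions in the Hd2lox Hdac1 list only and 2.71% of those in the Hdac2 list only. For chromosome 16 these are 3.05% and 3.21%. Chromosome 12 held 43 (6.65%, 4.97 to 8.83) against 3.10% of genes and 3.75% of all regions. It has 4.63% of the regions in the Hd2lox Hdac1 list only and 4.47% of those in the Hdac2 list only. The peak lists themselves differ by chromosome. Chromosome 8 has 5.65% and 5.21% of the Hd2lox Hdac1 and Hdac2 peaks, 8.43% and 8.63% in Bry and 8.79% and 13.3% in Hd1_loxlox. Chromosome 11 held 4.64% of members, against 7.35% of genes and 9.60% of all regions. It has 7.42% and 6.47% of the Hd2lox peaks, 10.1% and 9.54% in Bry and 13.6% and 15.5% in Hd1_loxlox. Chromosome 16 has 3.13% and 3.09% of the Hd2lox peaks, 3.17% and 3.15% in Bry and 4.35% and 6.47% in Hd1_loxlox. The part of the lists in the members' shares was not tested. On the X chromosome lay 20 members (3.09%, 2.01 to 4.73), against 4.41% of protein-coding genes, 0.844% of all regions, 0.818% of the Bry pair and 3.15% of the regions in the Hd2lox Hdac1 list only. The X chromosome has 1.48% and 0.848% of the Hd2lox peaks and from 0.0388% to 0.679% of those of the other lists. There, 13 members were at starts: Atp2b3, Cnksr2, Iqsec2, Map7d2, Morc4, Pcdh19, Pnck, Ptchd1, Rai2, Sox3, Tsc22d3, Xk and Zfx.

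**Figure D5:**
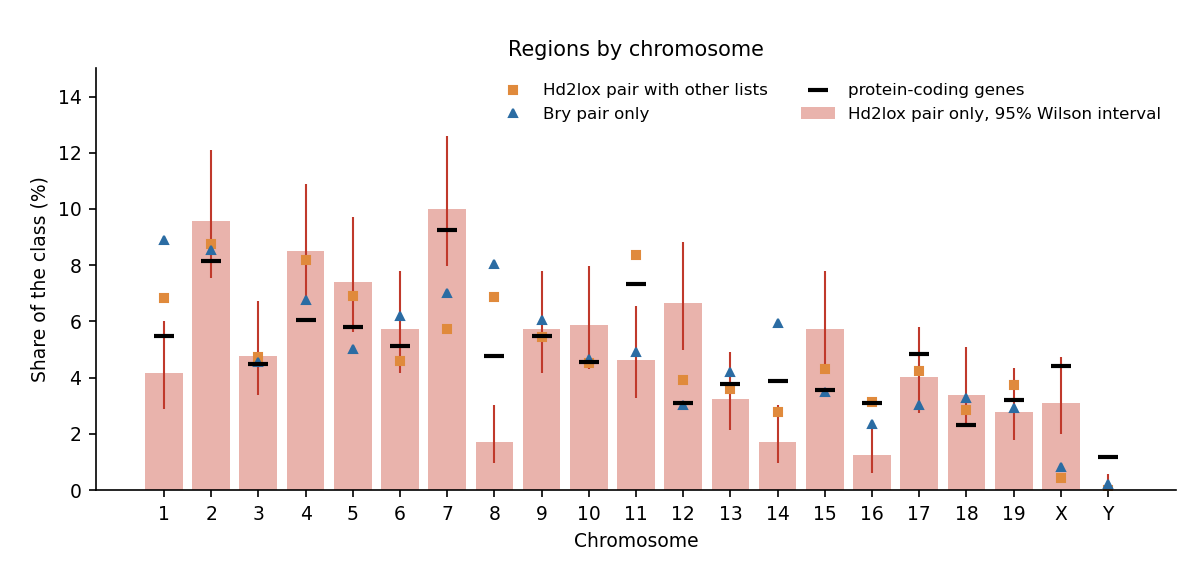
Members per chromosome (bars, % of 647, with 95% Wilson intervals), with the Bry pair (triangles), the Hd2lox pair with other lists (squares) and protein-coding genes (dashes) as shares of their own totals. The bars fall to 1.70% on chromosome 8 and reach 6.65% on chromosome 12.

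Some members were neighbours. A second member lay within 100 kb of 119 members (18.4%). The longest chain held 6 members over the Acot cluster (chr12:83987191-84102076), at starts of Acot1 to Acot6, which encode acyl-CoA thioesterases. Their Hdac1 peaks were 1137 to 1661 bp wide and their Hdac2 peaks 829 to 995 bp. The Acot genes are similar copies, so reads may have been shared among them by the alignment, and the number of separate sites there is uncertain. Further chains were 5 members from Rasip1 to Lmtk3 on chromosome 7, 4 from Hoxa3 to Evx1 on chromosome 6 and 3 over Evx2, Hoxd13 and Hoxd11 on chromosome 2. No gene held more than 2 members, and 15 held 2.

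At the edge of the choice, the smallest overlaps of Hdac1 and Hdac2 peaks in members were 46 bp in a region outside genes, whose nearest protein-coding start, that of 4933402N22Rik, was 79784 bp away, 267 bp inside Fgf14 and 332 bp inside Adgrl3. The pairs just left out were separated by 7, 87 and 91 bp, with Nrep, Sh2d5 and Cntnap2 as the gene they lay in or nearest to, and 15 such pairs lay within 1000 bp.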

How the data were processed

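ChIP-seq of Hdac1 and Hdac2 was done in 3 lines with a Diagenode kit, per the labels' protocols. The submitters' processing notes name bcl2fastq, Bowtie2 2.2.9, SAMtools 1.3.1, MACS2 2.1.1.20160309 and mm10, while no source used here gives the calling threshold, mode or controls. The deposited files hold, as the authors' values, chromosome, start and end of each peak per library, with no score. The title of the Hd2lox Hdac1 library and its file spell the line differently, and the title was followed.

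Peaks (46202) were joined at 1 bp of overlap with Python 3.11.15 and pandas 2.3.3, and the joining was tested on simulated peaks. Percentiles of width are within a list. Starts came from a RefSeq promoter table (17492 of 21887 protein-coding genes, GRCm38.p6), and from both outer ends of the other 4395 genes. The genes named are the 25 starts and 12 other regions with the highest mean percentile, and all members of the gene lists, of which some are not reported here. Members and lists were chosen with earlier results of these data known.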

Additional observations from a re-analysis of the deposited data

How the results depend on the processing

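The 9 results (numbers of members and genes, shares at starts, outside genes, CpG-rich or on chromosomes 8 and 11, median percentiles and median overlap) were recomputed under 14 alternatives, and 99 of 105 values stayed within their interval or, for counts, within 1.5 times. Leaving out each other list in turn gave 664.0 to 884.0 members and 413.0 to 603.0 genes, with 60.99% to 67.19% at starts (highest without Bry Hdac2), an Hdac1 width percentile of 33.71 to 37.39 (highest without Hd1_loxlox Hdac1, 37.15 without Bry Hdac2) and 6.091% to 9.010% on chromosomes 8 and 11 (highest without Hd1_loxlox Hdac1, and 6.337% with all lists). Keeping members whose Hdac2 peak was above the median width of its list, an alternative chosen after seeing the data, left 490.0 members with an Hdac2 percentile of 77.50 and an overlap of 923.0 bp, which follows from that choice. The planned search for motifs in longer windows was not run, since no genome was in use. No paired analysis was possible because no result comes from a test. Depth is unknown, so the part of read numbers in a missing peak was not tested.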
